A study of Mus musculus with 26 samples.

Results

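The S phase and mitosis genes are 49 genes chosen by symbol, 20 that act when DNA is copied and 29 that act in G2 and mitosis, out of 30406 genes listed for every library. All 49 were found. They were followed in the 18 libraries of sorted mouse microglia and in the 8 libraries of cortical nuclei, 26 libraries in all, each sequenced as 3′ tagged RNA of droplets and counted as unique molecular identifiers (UMIs), which count captured RNA molecules. All dams received saline or Poly(I:C), a double-stranded RNA mimic that causes maternal immune activation (MIA), at E12.5. Wild-type C57BL/6N microglia were sorted as Cd11b+, Cx3cr1+ and Cd45low cells from the cortex at E13 and E15 (saline and MIA, 3 libraries per group) and at P14, 14 days after birth (4 saline libraries, of which 3F and 3M are the female and male of replicate 3, and 2 MIA libraries). Embryos were pooled in each embryonic library, and sexes were mixed in all microglia libraries but 3F and 3M. Nuclei came from the cortex of male embryos at E15, from the 4 combinations of genotype (wild type or Csf1r-null) and injection (saline or MIA), in 2 libraries each. For the nuclei the paper counts 4 dams in all, with wild-type littermates as controls, so that libraries of both genotypes can share a dam. Csf1r-null embryos carry the loss of the receptor in every cell and lack microglia.

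A dividing cell copies its DNA once per cycle. In G1, E2F1 and cyclin E turn on the S phase genes, CDC6 and CDT1 load the MCM helicase at origins, and PCNA then holds the polymerases on DNA while ribonucleotide reductase supplies the building blocks. In G2 and mitosis, CDK1 with cyclins A and B drives entry into division, kinesins build the spindle, the centromere proteins and BUB1 checkpoint tie chromosomes to it, and UBE2C with CDC20 marks the cyclins for destruction. Microglial precursors reach the brain from the yolk sac and expand there before birth, and in the cortex apical progenitors divide at the ventricle while intermediate progenitors divide away from it.

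The counted microglia numbered 59267 and the counted nuclei 41539, with 5976089 to 95661903 UMIs in a microglia library. Several libraries stood apart. E15 saline 1 held more RNA of the G2/M genes than any other E15 library (3555 CPM, UMIs of the genes per 1000000 UMIs of the library, against 860 to 1306). E15 MIA 1 had 664 CPM of immediate early genes, against 107 to 158 in the other E15 libraries, and 3656 of its 4112 counted cells (88.9%) lay in 3 clusters that held 1 cell of any other library. The part of this in the E15 comparisons was not tested. Of 153 pairs of microglia libraries, 21 shared 32 to 258 cell barcodes, while other pairs shared at most 21. Any barcode found in more than 1 microglia library was kept only in the library where it had most UMIs. Before this step the barcodes removed from a library held 53.8% and 41.6% of all UMIs of the 49 genes in P14 saline 3F and 3M, and 28.7% in E15 MIA 3. For 257 of the barcodes removed from 3F, 238 from 3M and 229 from E15 MIA 3, the library with most UMIs was E13 MIA 2. Whether their UMIs came from cells of the later stages was not tested. The E15 and P14 values that differ most with the shared barcodes kept in every library are given beside the others, and this limit holds for all of them. Among the nuclei, the library labelled wild-type MIA 2 had 0 Csf1r UMIs and the library labelled Csf1r-null saline 2 had 10, which goes against both labels. In bulk sums such as these, fewer dividing cells and less RNA of a gene per cell cannot be told apart.

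In sorted microglia the summed levels of the S phase and of the G2/M genes were high at E13, lower at E15 and lower again at P14. Gene by gene, not all of the 49 passed the test from E13 to E15 in saline microglia, as given below. By the median fold change the G2/M genes fell further than the S phase genes from E15 to P14, whereas from E13 to E15 in saline microglia the order of both groups turned with 1 library, E15 saline 1. The level of a group of genes is given as the sum of its members in CPM, and such a sum is set mostly by its most abundant members. The 20 S phase genes had 1574, 1597 and 1356 CPM in the 3 E13 saline libraries, 923, 552 and 487 CPM in the E15 saline libraries, and 160, 168, 191 and 182 CPM at P14. The 29 G2/M genes had 4136, 4148 and 3612 CPM at E13, 3555, 1126 and 1306 CPM at E15, and 151, 135, 165 and 229 CPM at P14. With shared barcodes kept in every library, 3F and 3M had 277 and 244 CPM of S phase genes and 441 and 422 CPM of G2/M genes. Neither group overlapped between successive stages, although E15 saline 1, with 3555 CPM of G2/M genes, came close to the lowest E13 saline library.

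After MIA the same order was seen. The S phase genes had 1655, 1767 and 1372 CPM at E13, 404, 569 and 501 CPM at E15, and 165 and 178 CPM at P14. The G2/M genes had 2986, 4203 and 3922 CPM at E13, 860, 1048 and 1132 CPM at E15, and 159 and 81.9 CPM at P14. The MIA and saline libraries overlapped at every stage for both groups of genes, at E15 for the G2/M genes only in that the highest MIA library lay just above the lowest saline library, and P14 MIA 2 lay below all 4 saline libraries for the G2/M genes. With shared barcodes kept in every library, E15 MIA 3 had 1449 CPM of G2/M genes, above saline 2 and saline 3 at 1123 and 1359 CPM.

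**Figure D1:**
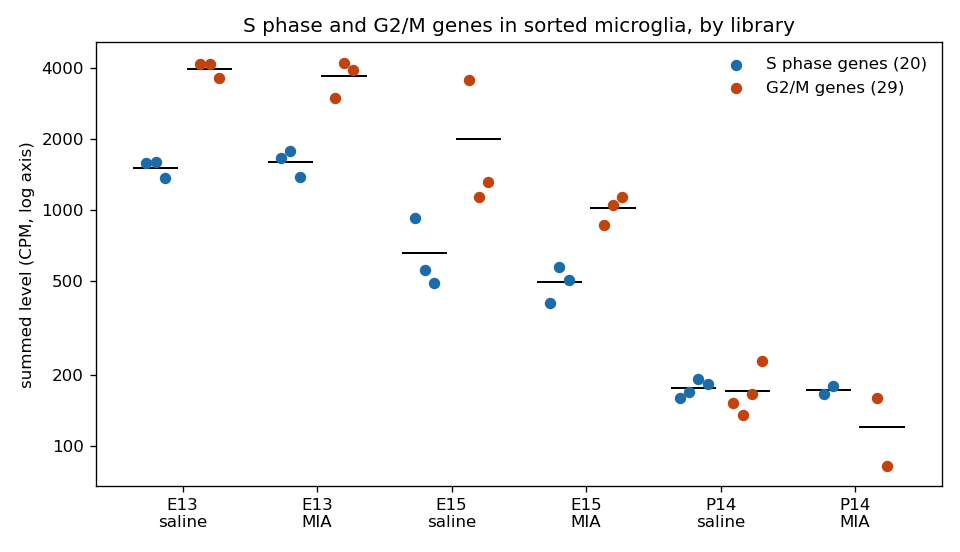
Summed level of the S phase genes and of the G2/M genes in each of 18 microglia libraries, in CPM on a log axis. Points are libraries and bars are group means. Both groups of genes step down from E13 to E15 to P14, and E15 saline 1 stands at 3555 CPM of G2/M genes, above the other 5 libraries of that stage at 860 to 1306 CPM.

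The balance of the phases changed with age. The log2 ratio of the S phase sum to the G2/M sum was −1.39 ± 0.02 (SD, n = 3) in E13 saline microglia and −1.21 ± 0.33 (n = 3) after MIA. At E15 it ranged from −1.94 in saline 1 to −0.88 in MIA 2. At P14 the S phase sum no longer lay far below the G2/M sum, with log2 ratios of 0.08, 0.32, 0.21 and −0.33 in the saline libraries and 0.05 and 1.12 after MIA. This depends on the shared barcodes. With them kept the ratio was −0.67 in 3F and −0.79 in 3M, and the saline mean turned from 0.07 to −0.27. With a narrower list of S phase genes it was −0.18. Pcna and Mcm7 made up 22.0% to 34.4% of the S phase UMIs at P14 and 12.1% to 21.8% before birth. Without this pair the P14 ratios were −0.72 to 0.51, still above all embryonic values of the same ratio (−2.13 to −1.17). Mcm3, with 39.0 to 51.0 CPM in the P14 saline libraries, was left in. As a mean over genes of log2 CPM, P14 saline 3M (−0.27) lay close to E15 MIA 2 (−0.31), the highest embryonic library. PCNA also serves in DNA repair outside S phase, and reads of Pcna and Mcm7 can be split with overlapping or near-identical genes, so that their counts are less certain.

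Top2a, whose product untangles the copied chromosomes, and Mki67, which coats mitotic chromosomes and is the usual marker of dividing cells, fell at both steps. Top2a had 554, 435 and 341 CPM in E13 saline microglia, 274, 124 and 139 CPM in E15 saline microglia and 13.5, 10.5, 15.7 and 19.1 CPM at P14. Mki67 had 501, 445 and 383 CPM, then 272, 119 and 164 CPM, then 7.42, 7.80, 10.6 and 18.8 CPM. Each gene separated the 3 stages without overlap, and in each E15 saline 1 was the highest library of its stage and 3M the highest at P14. With shared barcodes kept, 3F and 3M had 49.04 and 43.3 CPM of Top2a and 50.2 and 47.1 CPM of Mki67.

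Pcna and Mcm2 fell at both steps, Pcna less than Mcm2 at the later one. Pcna had 150, 125 and 121 CPM at E13, 55.8, 53.8 and 31.2 CPM at E15 and 25.4, 28.4, 21.0 and 21.1 CPM at P14 after saline. Mcm2, a subunit of the replicative helicase, had 63.4, 72.6 and 50.7 CPM, then 28.0, 21.7 and 20.9 CPM, then 3.48, 3.71, 3.94 and 4.42 CPM. For Pcna the lowest E15 library, saline 3, was close to the highest P14 library, while for Mcm2 the stages stood well apart.

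Tested gene by gene with edgeR (quasi-likelihood test, Benjamini-Hochberg adjustment over all genes, threshold 0.05), 25 of the 49 genes were lower in E15 than in E13 saline microglia and none was higher. Of all 13979 genes tested, 10.9% were called lower. The called genes were 16 of the 20 S phase genes and 9 of the 29 G2/M genes. All 49 fold changes were below 0, with a median log2 fold change of −1.21 for the S phase genes and −0.95 for the G2/M genes, against 0.041 for all genes.

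By role, all 9 genes of origin licensing and the helicase were called, with a median log2 fold change of −1.28. Mcm3, the highest of them at E13, fell from 173, 201 and 145 CPM to 115, 88.0 and 86.0 CPM (log2 fold change −0.82, SE 0.16, adjusted p 0.00218). Of the 8 genes of the fork, the nucleotide supply and chromatin copying, 5 were called. Among these Rrm1, the large subunit of ribonucleotide reductase, fell from 153, 146 and 116 CPM to 79.7, 43.9 and 41.6 CPM (−1.30, adjusted p 6.36e-04). Uhrf1, which carries DNA methylation to the new strand, fell by 1.70 on the log2 scale, and Rrm2, Esco2 and Neil3 were not called. Ccne2, a cyclin E that starts S phase, had the largest fall of the 49, from 52.3, 33.7 and 30.6 CPM to 15.9, 9.99 and 7.88 CPM (−1.74, SE 0.33, adjusted p 0.00142). Its partner gene Ccne1 was also lower (−1.29), while E2f1 was not called (−0.65, adjusted p 0.0555).

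Of the G2/M genes, all 4 genes of chromosome structure were called, among them Top2a (−1.28, SE 0.44, adjusted p 0.0438) and Mki67 (−1.23, SE 0.42, adjusted p 0.0408). The others called were Cdk1, which fell from 191, 237 and 211 CPM to 178, 50.2 and 42.2 CPM (−1.20, adjusted p 0.0308), Bub1b and 3 of the 9 spindle genes (Kif15, Kif20b and Kif23). Neither partner of the anaphase-promoting complex was called. Ube2c had 255, 345 and 311 CPM at E13 and 410, 75.7 and 91.3 CPM at E15, so that E15 saline 1 exceeded all E13 saline libraries (−0.62, SE 0.57, adjusted p 0.445). Ccnb2, a B-type cyclin, had the same shape with 78.8, 87.9 and 101 CPM against 131, 25.9 and 28.8 CPM and the smallest change of the 49 (−0.48, adjusted p 0.493).

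E15 saline 1 decided how many genes passed. Without it all 49 were called, against 15.9% of all genes called lower in that fit, with a median log2 fold change of −1.67 (−1.60 for the S phase and −1.71 for the G2/M genes, the reverse of the order with it), and leaving out any other library gave 16 to 19 called, against 6.56% to 7.48% of all genes. Without it Ube2c fell by 1.87 (adjusted p 0.00731) and Cdk1 by 2.20 on the log2 scale. For 32 of the 49 genes (18 S phase and 14 G2/M) every E13 saline library lay above every E15 saline library, as did 20.1% of all genes with at least 50 UMIs.

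In the MIA libraries, where no library stood so high at E15, all 49 genes were called lower in E15 than in E13, against 14.8% of all genes tested. The median log2 fold change was −1.69 for the S phase genes and −1.85 for the G2/M genes, and the range ran from −2.17 for Uhrf1 to −0.76 for E2f1. Uhrf1 fell from 67.2, 80.5 and 52.2 CPM to 8.66, 16.0 and 18.3 CPM. E2f1, the transcription factor that starts the S phase programme, fell from 28.98, 41.0 and 36.6 CPM to 21.7, 23.0 and 15.3 CPM. Top2a fell from 376, 534 and 350 CPM to 59.0, 118 and 141 CPM (−1.94, adjusted p 0.00433). Birc5, the survivin subunit of the chromosomal passenger complex, fell from 171, 199 and 262 CPM to 55.4, 51.7 and 42.5 CPM (−2.03, adjusted p 0.00591). Leaving out each library in turn gave 43 to 49 called genes, against 10.3% to 16% of all genes. Whether the stage difference itself differed between MIA and saline is tested below.

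From E15 to P14 in saline microglia all 49 genes were called lower, against 26.4% of all genes tested. The E15 saline libraries serve in this comparison as in the previous one. The median log2 fold change was −4.00 for the G2/M genes and −2.97 for the S phase genes, and each E15 saline library lay above each P14 saline library for every one of the 49, as for 19.6% of all genes with at least 50 UMIs. The largest falls were those of Birc5 (−4.99, SE 0.51, adjusted p 6.13e-07), from 226, 51.2 and 58.1 CPM to 3.88, 3.34, 3.39 and 6.21 CPM, and of Ube2c (−4.97), from 410, 75.7 and 91.3 CPM to 6.72, 6.27, 5.40 and 11.0 CPM. The smallest were those of Pcna (−1.22, SE 0.22, adjusted p 1.89e-04), Mcm7 (−1.29) and Mcm3 (−1.35), which kept 39.0, 41.1, 49.4 and 51.0 CPM at P14. Prc1, which bundles the microtubules between separating chromosomes, fell by 3.72 on the log2 scale, from 119, 45.5 and 54.5 CPM to 5.77, 4.54, 5.77 and 10.5 CPM. Cdk1 fell by 3.08, to 13.99, 13.1, 11.0 and 12.95 CPM. With barcodes shared between libraries kept in every library, the median over the 49 was −2.98 instead of −3.83, since 3F and 3M then held more of these UMIs.

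**Figure D2:**
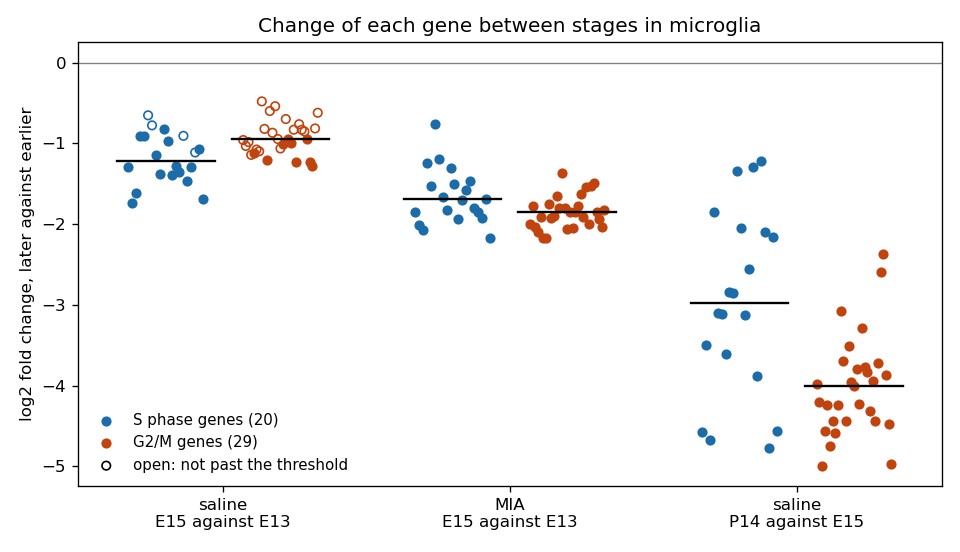
log2 fold change of each S phase gene and each G2/M gene between stages in microglia, later against earlier stage. Filled points passed the threshold of adjusted p (edgeR), open points did not, and bars are medians. From E13 to E15 the medians of the saline libraries are −1.21 (S phase) and −0.95 (G2/M) and those of the MIA libraries −1.69 and −1.85, and from E15 to P14 they are −2.97 and −4.00.

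Other genes moved with the stage. The summed CPM of the microglial markers rose from 21828 to 24531 at E13 to 32535 to 46362 at E15 and 59007 to 68328 at P14, and within E15 it was lowest in saline 1. The summed CPM of the apical progenitor markers was 225 to 310 at E13, 230 in E15 saline 1, 124 to 146 in the other E15 libraries and 130 to 171 at P14, with 1 of these markers at 0 in P14 saline 3M and none in the other libraries. The neuron markers had 20.1 to 39.8 CPM at E13, 25.4 to 214 CPM at E15, 174 CPM of them in saline 1, and 11.4 to 27.3 CPM at P14. Low-UMI cells made up 18.5% to 38.0% of the counted cells at E13, 14.4% in E15 saline 1, 5.29% to 12.53% in the other E15 libraries and 2.41% to 5.18% at P14. The part of these in the changes of the 49 genes was not tested.

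Promoters of the 49 genes were searched for short sequence elements, where a promoter was listed. The table of RefSeq promoters (GRCm38.p6) held 40 of the 49 genes, 16 S phase and 24 G2/M genes. For the shares, the 250 bases before and the 50 bases after each start site were searched on both strands. The windows printed below hold only the 250 bases before the start site. E2F-type letters (TTTCCCGC, TTTCGCGC, TTTGCCGC or TTTGGCGC) stood in 43.8% of the S phase promoters, 8.33% of the G2/M promoters and 2.32% of all 27025 promoters. Letters of the cell cycle homology region, CHR (TTTGAA or TTCGAA), stood in 18.8% of the S phase promoters, 83.3% of the G2/M promoters and 19.4% of all. CCAAT boxes stood in 62.5%, 79.2% and 37.9%, and a CHR together with a CCAAT box in 2 of the 16 S phase promoters, 70.8% of the G2/M promoters and 7.7% of all. A match is a description of the letters and does not show that a factor binds.

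An S phase pair (Mcm6 and Mcm7, helicase subunits) and a G2/M pair (Top2a and Mki67) are shown as examples, with each matched element in capitals. The windows lie on the minus strand at chr1:128359706-128359955 (Mcm6), chr5:138171884-138172133 (Mcm7), chr11:99024190-99024439 (Top2a) and chr7:135716380-135716629 (Mki67). They are printed 5′ to 3′ up to the base before the start site. The Mcm6 window holds overlapping E2F letters (TTTGGCGC and, on the opposite strand, TTTCGCGC) and another TTTGGCGC starting 47 bases before the start site, and 2 CCAAT boxes. The Mcm7 window, 1 of the 2 S phase windows with both a CHR and a CCAAT box, holds 1 E2F match, 1 CHR that reads the same on both strands and 2 CCAAT boxes. Top2a has 4 CHR matches and 6 CCAAT boxes and Mki67 has 2 CHR matches and 3 CCAAT boxes, with no E2F letters of these 4 kinds in either.
Mcm6: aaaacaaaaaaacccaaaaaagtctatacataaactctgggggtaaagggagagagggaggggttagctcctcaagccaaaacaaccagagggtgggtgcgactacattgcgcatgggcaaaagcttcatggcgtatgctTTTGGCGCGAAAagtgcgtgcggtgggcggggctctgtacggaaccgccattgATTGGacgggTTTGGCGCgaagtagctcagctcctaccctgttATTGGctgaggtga
Mcm7: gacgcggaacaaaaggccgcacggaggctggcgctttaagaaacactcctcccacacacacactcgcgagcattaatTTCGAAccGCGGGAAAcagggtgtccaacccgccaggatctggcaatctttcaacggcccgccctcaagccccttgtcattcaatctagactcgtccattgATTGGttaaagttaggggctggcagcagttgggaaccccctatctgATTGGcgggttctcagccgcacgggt
Top2a: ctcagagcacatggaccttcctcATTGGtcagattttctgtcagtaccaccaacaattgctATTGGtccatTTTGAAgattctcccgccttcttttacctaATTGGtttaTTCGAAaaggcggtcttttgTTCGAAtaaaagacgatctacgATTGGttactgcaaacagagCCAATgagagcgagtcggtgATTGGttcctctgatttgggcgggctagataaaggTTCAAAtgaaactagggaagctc
Mki67: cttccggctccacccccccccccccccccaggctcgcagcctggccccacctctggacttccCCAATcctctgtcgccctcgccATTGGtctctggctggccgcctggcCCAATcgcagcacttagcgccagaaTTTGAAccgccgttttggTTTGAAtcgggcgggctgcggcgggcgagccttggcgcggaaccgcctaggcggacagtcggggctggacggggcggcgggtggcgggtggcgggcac

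The fall was also seen as fewer cells with UMIs of these genes. To compare libraries of different depth, each cell was thinned to 2000 UMIs, and cells below that depth were left out (30 to 1086 per library at E13, 66 to 600 at E15 and 136 to 347 at P14). With at least 2 UMIs of the G2/M genes as the criterion, 62.5%, 65.2% and 66.9% of cells were positive in E13 saline libraries, 45.1%, 13.4% and 12.4% in E15 saline libraries and 1.52%, 1.51%, 1.80% and 1.90% at P14. After MIA the shares were 56.2%, 63.4% and 68.3%, then 11.7%, 13.9% and 11.1%, then 1.07% and 1.48%. E15 saline 1 stood alone between the stages. Unthinned, the G2/M shares were 84.8% to 93.5% at E13, 33.6% to 82.1% at E15 and 4.53% to 9.25% at P14, at median depths of 8211 to 26233, 8841 to 12524 and 3682 to 6837 UMIs per cell.

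Part of these shares can be background. Neurons caught in the same sorted libraries, which do not divide, reached the criterion in 47.7% of 199 cells at E13, 15.0% of 1071 at E15 and 3.00% of 100 at P14. The E15 shares other than that of saline 1, and all P14 shares, were no higher than those of the neurons. The neuron clusters had median depths of 2072, 2033 and 13603 UMIs before birth and 2481 UMIs at P14. Stray RNA can weigh more in shallow cells, and mixed droplets among the neurons were not excluded. The comparison thus cannot tell how much of the microglial shares was background. For the S phase genes the neurons gave 33.2%, 13.6% and 3.00%, against 54.0% to 66.4% of microglia at E13, 14.1% to 33.2% at E15 and 4.35% to 5.71% at P14. A stricter criterion of 10 UMIs, added after the data were seen, separated the G2/M genes better. It was met by 28.8%, 34.3% and 30.1% of E13 saline microglia and by 22.6%, 29.1% and 32.9% after MIA, against 6.03% of neurons (exact 95% interval 3.15% to 10.3%). At E15 it was met by 24.7%, 6.34% and 5.95% of saline and 5.02%, 6.31% and 5.49% of MIA microglia, against 1.21% of neurons (0.648% to 2.07%). At P14 it was met by 0.305%, 0.237%, 0.380% and 0.498% of saline and 0.268% and 0.0673% of MIA microglia, where 0 of 100 neurons allow a share of up to 3.62% (exact 95% interval). With shared barcodes kept the shares were 1.32% in 3F and 1.31% in 3M. These 100 neurons were too few to tell the P14 shares from background by this comparison. Intervals cover counting error only.

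The clusters of the counted P14 cells show where the G2/M UMIs lay. The cluster with the highest level, chosen for that level among 12, held 130 of the counted cells, with 11810 CPM of the G2/M genes and a median of 50.5 G2/M UMIs per cell, whereas the other 11 clusters had 56.2 to 102 CPM and a median of 0 UMIs. Its leading genes were cycle genes, so that its cell type is not named. All 11 microglial markers were present at 50 CPM or more, but 5 of 6 border macrophage markers were over 2-fold above the other clusters, with a median of 25.9 CPM against 29.8 CPM in the cluster called border macrophages and 0.20 CPM in the largest cluster of microglia. The part of border macrophages in it was not tested. It made up 0.493%, 0.424%, 0.598% and 0.896% of the counted cells in the saline libraries and 0.413% and 0.0864% after MIA, the last being 4 of 4628 cells (exact 95% interval 0.0236% to 0.221%). These cells carried 56.4% to 70.6% of all G2/M UMIs of the saline libraries, 64.1% in MIA 1 and 21.3% in MIA 2, but only 7.84% to 15.7% of the S phase UMIs in saline, 7.39% in MIA 1 and 0.966% in MIA 2. So at P14 most G2/M UMIs came from few cells in all libraries but MIA 2, and the S phase UMIs were spread over the others. This is a description, since the cluster was chosen for its level.

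**Figure D3:**
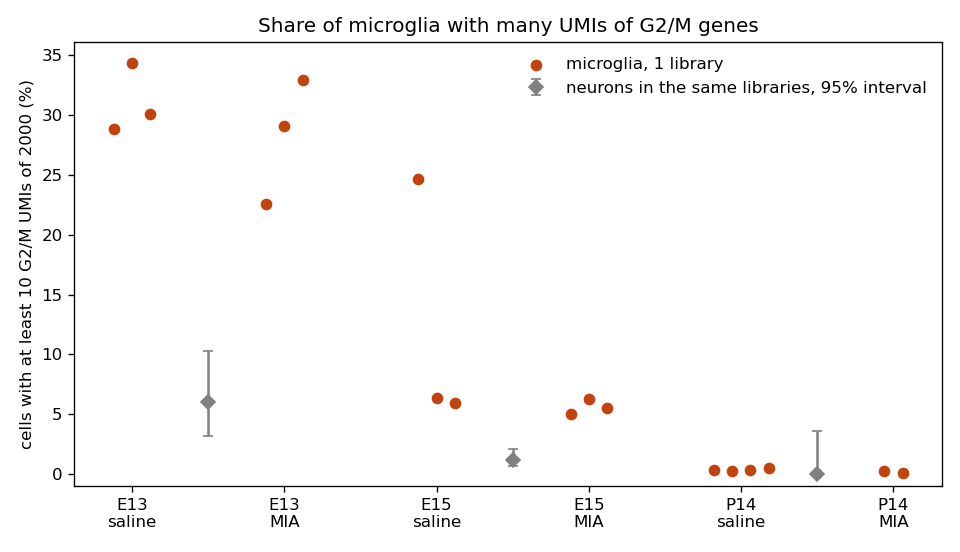
Share of microglia with at least 10 UMIs of the G2/M genes after thinning each cell to 2000 UMIs, by library. Diamonds are neurons in the same libraries with the exact 95% interval. E13 libraries lie at 22.6% to 34.3%, E15 saline 1 at 24.7%, the other E15 libraries at 5.02% to 6.34% and P14 libraries below 0.5%.

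MIA against saline within each stage addresses whether maternal inflammation was followed by a change of these genes in microglia. At E13, the day after the injection, none of the 49 genes was called and none had an unadjusted p under 0.05 with edgeR, against 0% and 0.914% of all genes. DESeq2 gave 1, against 0.808% of all genes. Leaving out each library in turn gave 0 or 1 such gene, except that without MIA 3 there were 7, against 5.4% of all genes. The median log2 fold change was 0.02 for the S phase genes and −0.10 for the G2/M genes, and the range ran from −0.21 for Mki67 (adjusted p 1) to 0.36 for Pcna (SE 0.20, adjusted p 1). Pcna had 189, 218 and 111 CPM after MIA against 150, 125 and 121 CPM after saline, and Mki67 had 314, 465 and 380 CPM against 501, 445 and 383 CPM. For no gene of the 49 did the groups separate, while of all genes 1.67% had every saline library above every MIA library and 2.28% the reverse, so that 0 of 49 lies near the share over all genes. MIA 1 and MIA 2 rest on 265 and 349 cells, so that this stage has the least precise libraries.

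At E15, 0 of the 49 genes were called (0% of all genes; 0 also with DESeq2), while 48 of 49 fold changes were below 0. With edgeR, 12 of the 49 had an unadjusted p under 0.05, all of them G2/M genes that were lower after MIA, against 0.576% of all genes in either direction. DESeq2 gave 25, against 0.991% of all genes. These 12 were Ccnb1, Cenpe, Cenpf, Bub1, Knl1, Kif11, Kif20a, Kif20b, Tpx2, Hmmr, Prc1 and Mki67. The median log2 fold change was −1.0 for the G2/M genes and −0.49 for the S phase genes.

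The values by library show where this came from. Ube2c, with the lowest estimate (−1.32, SE 0.63, adjusted p 1), had 410, 75.7 and 91.3 CPM after saline and 96.7, 70.4 and 61.5 CPM after MIA, so that only saline 1 lay clear of the MIA libraries. Mki67 had 272, 119 and 164 CPM after saline and 57.7, 103 and 140 CPM after MIA, and Top2a had 274, 124 and 139 CPM against 59.0, 118 and 141 CPM. For Mki67 and Top2a saline 1 was the highest and MIA 1 the lowest library. The other 4 had 103 to 164 CPM of Mki67 and 118 to 141 CPM of Top2a. For Ube2c, in contrast, MIA 1 was the highest MIA library. Pcna was alike in both groups, at 55.8, 53.8 and 31.2 CPM after saline and 41.9, 52.2 and 47.9 CPM after MIA (0.02, SE 0.25). Without saline 1 the median over the 49 was −0.18 and 0 genes had an unadjusted p under 0.05, and without MIA 1 these values were −0.64 and 0. They were −1.06 and 27 without saline 2, −1.0 and 27 without saline 3, −0.84 and 1 without MIA 2 and −0.98 and 10 without MIA 3, with 0 genes called in each. In the fits that gave 27, 27 and 10 the share of all genes was 1.5%, 1.43% and 0.913%. With shared barcodes kept in every library the median was −0.71 and 0 of the 49 had an unadjusted p under 0.05, against 0.323% of all genes. Without saline 1 the estimate of Ube2c was −0.07 (SE 0.25) and that of Cdk1 was 0.25 (SE 0.21). With the replicate number as a block, which takes the E15 libraries as pairs, 4 genes had an unadjusted p under 0.05, against 2.14% of all genes, and 0 were called. Within each such pair saline lay above MIA for Ube2c and Mki67, and for Top2a in pairs 1 and 2 but not in pair 3. Every saline library lay above every MIA library for 8 of the 49 genes (2 S phase and 6 G2/M), as for 2.06% of all genes.

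The test of the difference between the stages, the response to MIA at E15 minus that at E13, called 0 of the 49 genes (0% of all genes; 0 also with DESeq2). At an unadjusted p under 0.05 it gave 3 (Mcm4, Kif20b and Tpx2), against 0.78% of all genes, and DESeq2 gave 1, against 0.572%. All 49 estimates were below 0, with a median of −0.69, from −1.35 for Kif20a to −0.11 for E2f1. Kif20a, a kinesin of cell division, had 32.6, 36.1 and 27.3 CPM after saline and 25.98, 42.7 and 32.9 CPM after MIA at E13, and 38.1, 8.94 and 10.0 CPM against 7.60, 8.48 and 7.28 CPM at E15, where saline 1 stood apart. E2f1 had 31.7, 41.4 and 36.6 CPM after saline at E13 and 30.1, 20.8 and 17.6 CPM at E15. Without E15 saline 1 the median was −0.10 and 0 genes had an unadjusted p under 0.05. Without E15 saline 2 these values were −0.98 and 24 (2.04% of all genes), without E15 saline 3 −0.91 and 25 (2.52% of all genes), without E15 MIA 1 −0.58 and 0, and leaving out each other library gave 0 to 4 genes.

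At P14, 48 of the 49 genes passed the filter on low counts (Cdc6 did not) and 0 were called (0% of all genes; 0 also with DESeq2). With an unadjusted p under 0.05 were 3 genes with edgeR, against 3.7% of all genes, and 8 with DESeq2, against 3.12%. The 3 were Ccne2 (−1.14, SE 0.43, adjusted p 0.924), the centromere histone gene Cenpa (−0.57) and Smc4 (−0.27), a condensin subunit. The range ran from −1.38 for Esco2, which joins sister chromatids, to 0.32 for Pcna. Esco2 had 1.99, 1.197, 3.30 and 1.52 CPM after saline and 1.38 and 0.166 CPM after MIA, and Pcna 24.7 and 34.2 CPM after MIA. The median over the 48 was −0.48 and it rested on MIA 2. The summed CPM of the microglial markers was 66624 and 68328 in MIA 1 and MIA 2 against 59007 to 66500 in the saline libraries, and that of the border macrophage markers was 67.6 and 58.7 CPM against 67.7 to 93.5 CPM, so that both sums stood apart between the groups by a narrow margin. The part of these in the P14 values was not tested. Top2a had 14 and 2.45 CPM in MIA 1 and MIA 2 against 10.5 to 19.1 CPM in the saline libraries, and Mki67 had 8.44 and 2.05 CPM against 7.42 to 18.8 CPM. MIA 1 thus lay among the saline libraries and MIA 2 below them. Without MIA 1 the median was −1.20, with 25 genes at an unadjusted p under 0.05, against 3.19% of all genes, and without MIA 2 it was −0.05 with 0. Leaving out a saline library gave 0 to 7 such genes, against 1.79% to 11.7% of all genes, and medians of −0.56 to −0.34. With shared barcodes kept in every library it was −1.34 with 12, against 3.76% of all genes, since these barcodes added UMIs of the 49 genes to saline 3F and 3M. Every saline library lay above every MIA library for 7 of the 49 genes (4 S phase and 3 G2/M), as for 5.84% of all genes.

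**Figure D4:**
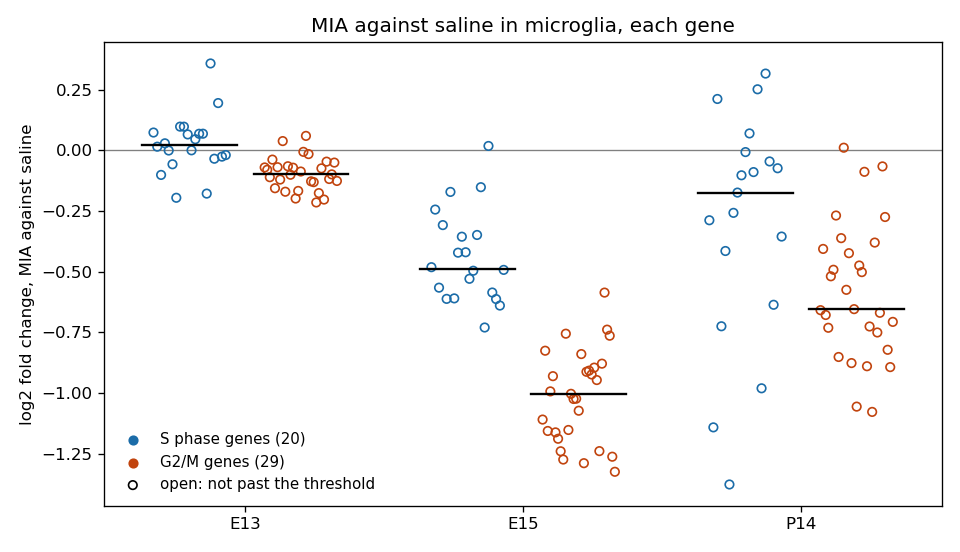
log2 fold change of each S phase gene and each G2/M gene in microglia, MIA against saline at each stage. All points are open because none passed the threshold of adjusted p (edgeR), bars are medians, and Cdc6 is missing at P14. The medians are 0.02 and −0.10 at E13, −0.49 and −1.0 at E15 and −0.17 and −0.65 at P14 for S phase and G2/M genes.

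Genes that surround the 49 in the cycle moved with them between the stages. In saline microglia from E13 to E15, 25 of 27 further replication factors and 25 of 50 further genes of the mitotic apparatus were called lower and none higher, against 10.9% of all genes called lower and 13.3% higher. Mcm10, which helps the helicase start, fell by 1.61 on the log2 scale (adjusted p 2.77e-04), and Gtse1, a microtubule-bound protein of G2, fell by 1.44. Of 18 genes in the list of G1 control 9 were called lower, with E2f8 lowest (−1.35). Ccnd1 and Ccnd3, D-type cyclins that answer growth signals, had estimates of −0.19 and −0.02 and were not called. Of 20 genes of transcription and checkpoints 8 were lower, with Mybl2, a subunit of the complex that turns on G2/M genes, at −1.80, and 3 were higher, with Btg2, an antiproliferative gene, at 0.96 (adjusted p 6.66e-04).

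The CDK inhibitors were mixed. Of 7 such genes, 4 had estimates above 0 and 3 below 0 in E15 against E13 saline microglia, and 3 were called higher and none lower, namely Cdkn1c (1.05, SE 0.27, adjusted p 0.0104), Cdkn1a (0.76, adjusted p 0.0164) and Cdkn1b (0.67, adjusted p 0.00624). The MIA libraries called the same 3 higher, Cdkn1a most (0.94, adjusted p 0.00422), against 14.6% of all genes called higher, and Cdkn2c lower (−1.22). From E15 to P14 4 of 7 were higher and 3 lower, with Cdkn2b at 3.36, Cdkn1c at 1.44, Cdkn1b at 0.67, Cdkn1a at −1.43 and Cdkn2c at −1.53. At that step 25 of 27 replication factors and 45 of 50 mitotic genes were lower, against 26.4% of all genes called lower and 24.9% higher, with Mcm10 at −5.42 and Kif4 at −5.05. In the list of mitotic genes 2 were higher, with Cdca7 at 0.64, and its place in that list is not a result of these data. Of 18 genes of G1 control 10 were lower and 3 higher, and of 20 genes of transcription and checkpoints 10 were lower and 4 higher. Against saline, MIA called 0 genes of these lists at any stage (edgeR), and 1 of 121 genes tested at E13, 12 of 121 at E15 and 2 of 117 at P14 had an unadjusted p under 0.05, against 0.914%, 0.576% and 3.7% of all genes. The E15 genes were all lower after MIA, and the numbers at E13 and P14 were near or below the share over all genes.

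In the cortex at E15 the 49 genes marked the progenitors. Nuclei were grouped without the 49 and other cycle genes. Genes that vary with the cycle can still have shaped the grouping, since some progenitor clusters were led by members such as Top2a and Cenpe. A cluster of 4321 nuclei was left unnamed and is in none of the classes below. Apical progenitors, 4649 nuclei in 8 libraries, had 2502 ± 108 CPM of the S phase genes and 4957 ± 671 CPM of the G2/M genes (SD, n = 8). Intermediate progenitors, 4714 nuclei, had 1488 ± 151 and 2665 ± 695 CPM. Migrating neurons had 425 ± 25.4 and 376 ± 61.5 CPM and projection neurons 263 ± 22.5 and 160 ± 16.3 CPM. In each of the 8 libraries the classes kept this order for both groups of genes. The log2 ratio of S phase to G2/M was −0.98 ± 0.15 in apical and −0.81 ± 0.25 in intermediate progenitors, against 0.19 in migrating and 0.72 in projection neurons. Interneurons and ventral neurons ranged widely, because the library of wild-type saline 1 had 1121 and 1927 CPM in that class while the other 7 libraries had 288 to 395 and 226 to 415 CPM.

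**Figure D5:**
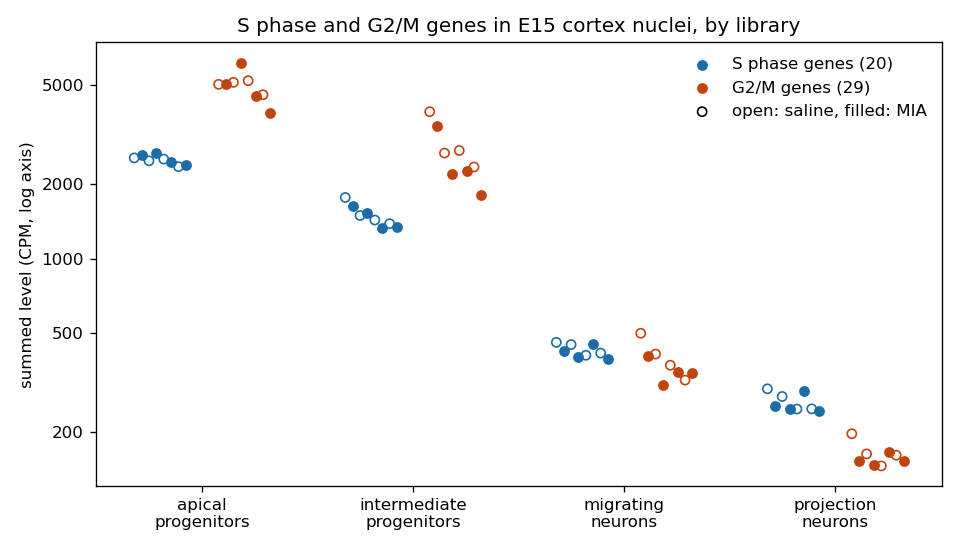
Summed level of the S phase genes and of the G2/M genes in E15 cortex nuclei by class, in CPM on a log axis. Each point is 1 of 8 libraries, open for saline and filled for MIA. The levels step down from apical progenitors (means of 2502 and 4957 CPM) through intermediate progenitors (1488 and 2665 CPM) to projection neurons (263 and 160 CPM).

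Apical progenitors exceeded intermediate progenitors in all 8 libraries for 34 of the 49 genes (15 S phase and 19 G2/M), and no gene was higher in intermediate progenitors in all 8. Of all 11949 genes with at least 50 UMIs, 22.6% were higher in apical and 13.7% in intermediate progenitors in all 8. The median log2 ratio of apical to intermediate progenitors was 0.80. It was highest for Uhrf1 (1.45 ± 0.28, n = 8). Top2a had 861 ± 142 CPM in apical and 429 ± 110 CPM in intermediate progenitors, and Mki67 557 ± 125 and 253 ± 77.8 CPM. Pcna had 202 ± 43.1 and 109 ± 26.7 CPM. Some members were level between both classes. Mcm7 had 317 ± 25.5 and 330 ± 18.1 CPM, with 210 CPM in migrating and 113 CPM in projection neurons, and E2f1 had 53.4 and 58.2 CPM in apical and intermediate progenitors. Plk1, a mitotic kinase, was higher in apical progenitors in 4 of 8 libraries.

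The shares of nuclei gave the same order. After thinning to 1000 UMIs, 63.1% to 69.1% of apical and 26.6% to 40.1% of intermediate progenitors held at least 2 UMIs of the G2/M genes, against 1.16% to 2.19% of projection neurons, which do not divide. For the S phase genes the shares were 56.9% to 64.0%, 28.9% to 37.0% and 2.31% to 4.65%. From 12 to 226 apical and 16 to 302 intermediate progenitors per library were below that depth and were left out. Unthinned, the G2/M shares were 65.2% to 85.1%, 29.98% to 55.4% and 5.65% to 15.1%, at median depths of 1141 to 2350, 1034 to 2184 and 1803 to 3514 UMIs.

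In apical progenitors MIA against saline called 0 of the 49 genes in wild-type and 0 in Csf1r-null embryos (edgeR, adjusted p; 0% of all genes in each; 0 also with DESeq2). In wild type 11 had an unadjusted p under 0.05, against 9.04% of all genes (6 with DESeq2, against 4.77%), and all 11 were lower after MIA, 10 of them G2/M genes. Ccnb2 was lowest, with 91.2 and 88.1 CPM after saline and 51.9 and 35.9 CPM in the libraries labelled MIA 1 and MIA 2 (−1.09, SE 0.27, adjusted p 0.433). Ube2c had 163 and 221 CPM against 128 and 112 CPM (−0.75), Cdc20 had 73.7 and 64.3 CPM against 51.9 and 28.5 CPM (−0.84), and Tpx2 had 224 and 179 CPM against 137 and 133 CPM (−0.65). For these 4 genes the groups did not overlap, which with 2 libraries against 2 was common. Every saline library lay above every MIA library for 16 of the 49 genes (4 S phase and 12 G2/M) and below for 8 (4 and 4), against 17.1% and 28.2% of all genes with at least 50 UMIs. The highest estimate was that of Clspn, a checkpoint protein of the fork, with 123 and 125 CPM after saline and 168 and 159 CPM after MIA (0.32, SE 0.19, adjusted p 0.623). Top2a and Mki67 were not lower, with 786 and 789 CPM against 879 and 849 CPM for Top2a (0.06) and 560 and 451 CPM against 632 and 409 CPM for Mki67 (−0.03).

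With the replicate number as a block these 4 genes were called lower in wild-type apical progenitors, Ccnb2 (adjusted p 0.0173), Ube2c (0.0299), Cdc20 (0.0439) and Tpx2 (0.035). In that fit 1.7% of all genes were called lower. The number coincides with the software and barcode filter of the nuclei, and litter or sequencing run, which the labels do not give, may differ with it. Over all counted nuclei, the summed CPM of the red blood cell markers was 537 and 374 CPM in the wild-type saline libraries and 259 and 253 CPM after MIA. That of the apical progenitor markers was 1404 and 922 CPM against 886 and 1084 CPM, and wild-type saline 1 held 85.3% and 94.8% of the nuclei of 2 clusters of ventral neurons. The part of these in the change was not tested. The wild-type MIA group also holds a library that goes against its label. The fit with the block was not repeated without that library, and the counts and medians that follow are of the fit without a block. Without the libraries labelled wild-type MIA 2 and Csf1r-null saline 2, 4 genes had an unadjusted p under 0.05 (4.1% of all genes) and the median over the 49 moved from −0.16 to −0.09, and with the genotype labels of those 2 libraries exchanged these values were 1 (3.66% of all genes) and −0.04.

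In Csf1r-null apical progenitors 1 gene had an unadjusted p under 0.05 with edgeR (Mcm2, 0.55), against 1.67% of all genes, and 0 with DESeq2, against 0.149%. The median over the 49 was 0.01, and it moved between −0.18 without MIA 1 and 0.23 without MIA 2, where 5 genes had an unadjusted p under 0.05, against 3.81% of all genes. Mcm2 had 53.8 and 49.2 CPM in the libraries labelled saline and 88.5 and 64.2 CPM after MIA. Ccnb2 had 54.9 and 41.4 CPM against 37.1 and 58.1 CPM, without order. The range ran from −0.33 for Birc5, with 124 and 116 CPM against 100 and 93.2 CPM, to 0.61 for Plk1, with 14.5 and 16.8 CPM against 38.7 and 7.26 CPM. The difference of the response between genotypes called 0 of the 49 (0% of all genes; 0 with DESeq2), and 3 had an unadjusted p under 0.05, against 3.49% of all genes (2 with DESeq2, against 1.07%), namely Ccnb2 (1.03, SE 0.40), Ube2c (0.71) and Tpx2 (0.85). The estimates ran from −0.47 for Clspn, which in Csf1r-null had 167 and 186 CPM against 152 and 172 CPM, to 1.33 for Plk1, which in wild type had 26.2 and 39.6 CPM against 20.0 and 22.0 CPM. Without the pair of libraries whose genes go against their labels the number of 3 was 0, and leaving out each library in turn gave 1 to 6, against 2.33% to 8.29% of all genes, and medians of −0.03 to 0.35. Of the 119 related genes tested in apical progenitors, 0 were called by edgeR in either genotype, and 12 in wild type and 1 in Csf1r-null had an unadjusted p under 0.05, against 9.04% and 1.67% of all genes, which in apical progenitors lie near or below the share over all genes.

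In intermediate progenitors 0 of the 49 were called in either genotype or in the difference (edgeR and DESeq2; 0% of all genes in each). In wild type 6 had an unadjusted p under 0.05, against 4.86% of all genes (4 with DESeq2, against 1.83%), all lower after MIA, namely Mcm5, Cdk1, Ccnb2, Ube2c, Nusap1 and Tpx2. Ube2c had 210 and 153 CPM after saline and 118 and 62.3 CPM after MIA (−1.03, SE 0.32, adjusted p 0.926), and Kif11, at the other end, had 88.1 and 48.1 CPM against 116 and 64.0 CPM (0.38). In Csf1r-null 4 had an unadjusted p under 0.05, against 1.64% of all genes (1 with DESeq2, against 0.188%), namely Ccna2, Ccnb2, Cenpe and Cdc20, all lower. Cdc20 had 33.7 and 30.6 CPM in the libraries labelled saline and 12.4 and 20.6 CPM after MIA (−0.96, adjusted p 1), and Uhrf1 had 35.5 and 25.5 CPM against 62.1 and 39.3 CPM (0.68, adjusted p 1). For the difference between genotypes only Mcm5 (0.95) had an unadjusted p under 0.05 with edgeR, against 2.35% of all genes, and 0 genes with DESeq2, against 0.485%. Mcm5 had 50.0 and 37.9 CPM against 33.4 and 17.7 CPM in wild type and 31.9 and 30.6 CPM against 38.3 and 32.4 CPM in Csf1r-null. The lowest estimate of the difference was that of Kif11 (−0.78), with 96.7 and 74.0 CPM against 77.6 and 55.0 CPM in Csf1r-null. Without the libraries labelled wild-type MIA 2 and Csf1r-null saline 2, the 6 in wild type became 1 and the 4 in Csf1r-null became 5, against 2.4% and 1.3% of all genes. With the genotype labels of those libraries exchanged, these numbers were 2 and 3, against 3.19% and 2.51%. Leaving out each library in turn gave 3 to 10 genes in wild type, with 10 without saline 2 (3.47% of all genes), and 0 to 6 in Csf1r-null, with 6 without MIA 2 (4.85% of all genes). Of the 119 related genes tested in intermediate progenitors 0 were called by edgeR in either genotype. In wild type 13 had an unadjusted p under 0.05, 12 of them lower after MIA, against 4.86% of all genes, and in Csf1r-null 2, against 1.64%.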

How the data were processed

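RNA was measured in 18 libraries of sorted microglia and 8 of cortical nuclei (Chromium 3′ v3.1). The deposited matrices hold raw UMI counts, not normalized. Alignment to mm10 and counting were done by the authors with Cell Ranger. The paper names versions 6.0.1 for nuclei and 6.0.0 for microglia, whereas the file headers name 3.1.0 for microglia and replicate 1 nuclei and 6.0.1 for replicate 2 nuclei. Barcodes of replicate 1 nuclei were listed without a cell filter. The paper's own filtered cells were not used here.

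A minimum of 500 genes and a maximum of 20% mitochondrial UMIs was set for microglia, and minima of 500 UMIs and 200 genes for nuclei, which left 67847 cells and 43456 nuclei. Doublets were scored with Scrublet in scanpy 1.11.5 and removed at 0.8% per 1000 cells (2586 cells and 1917 nuclei). In microglia, any barcode that passed the filter in more than 1 library was kept only where it had most UMIs. This removed 1828 entries, some of which were also removed as doublets. A further 4200 cells of other types were left out after clustering (2000 variable genes, 30 components, 20 neighbours, Leiden resolution 1, leidenalg 0.10.2). The 49 genes, the related cycle genes, histone genes, mitochondrial genes and Csf1r, 252 in all, took no part in clustering. Of the counted microglia 6284 were in low-UMI clusters and 792 were border macrophages. The counted microglia also hold a P14 cluster of 255 cells whose leading genes include neuron and astrocyte genes such as Nrgn and Slc1a2.

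Sums of UMIs over the cells of a class in each library were tested with edgeR 4.0.16 (quasi-likelihood, TMM, filterByExpr) in R 4.3.3 with Benjamini-Hochberg adjustment over all genes. MIA was tested within each age, stages in 1 model over all microglia libraries, and nuclei in 1 model per class with a genotype interaction. The dams are not in the labels, so that nuclei libraries that can share a dam were treated as independent. P14 saline 3F and 3M, both of replicate 3, were also treated as independent libraries in the tests, the SDs and Dixon's test. DESeq2 1.42.0 served as an alternative. For nuclei the paper used NEBULA, which was not run here, and reports similar results from DESeq2 on summed counts. For microglia the paper used DESeq2 with sex and sequencing batch in the model. The fits here hold neither, since the labels do not give the batch and most microglia libraries mix the sexes. The test code was checked on simulated counts. Libraries were the replicates, each of pooled embryos in embryonic microglia, so that p-values measure the spread between libraries. Same-numbered libraries deviated together at E15 (correlations 0.134 to 0.628), in apical (0.364 to 0.434) and in intermediate progenitors (0.329 to 0.418), so that the block is reported there. At E15 saline 2 correlated at 0.134 with MIA 2 and at 0.188 with MIA 3, so that this pairing is uncertain. In nuclei the number coincides with software and barcode filter, and litter or sequencing run, which the labels do not give, may differ with it. At E13 and P14 the numbers were not taken to pair the libraries.

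The 49 genes, the lists of related genes and the tests were chosen with earlier results of these data known. Values in every library were given for Top2a, Mki67, Pcna and Mcm2, for the gene of each of the 8 roles with the highest mean in E13 saline microglia, and for the lowest and highest fold change of each comparison, and related lists were summarised by counts with their largest changes among called genes. Other genes that the text names were singled out after their values were seen. Promoter sequences were taken from RefSeq (GRCm38.p6).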

Additional observations from a re-analysis of the deposited data

Results flagged for a closer look

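Of 22 values tested in the 4 P14 saline libraries, 1 had a library far from the others by Dixon's test at the 95% level, where chance flags about 1 in 20. The level of Ccnb2, a B-type cyclin, was 4.72 CPM in P14 saline 3M, the male library of replicate 3, against 2.43 to 2.70 CPM in the other 3. The gap to the nearest library was 0.883 of the whole range. In 3M, 41.6% of the UMIs of the 49 genes lay in barcodes shared with other libraries before these were removed, and 53.8% in 3F, whose Ccnb2 level was 2.70 CPM. With the shared barcodes kept in every library, Ccnb2 was 7.12 CPM in 3F and 7.58 CPM in 3M, against 2.42 and 2.56 CPM in the other 2, so that 3M no longer stood apart.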

How the results depend on the processing

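Among alternative values of the counts of called genes, 183 stayed within 1.5 times the reported count and 7 did not, and no value reversed. Most reported counts were 0 or 49 of 49, where such a measure can show little. For MIA against saline at E15 the count stayed at 0 without each library in turn, while the median moved between −1.06 and −0.18. For saline microglia, E15 against E13, leaving out each library in turn gave between 16 and 49 called genes in place of 25, with 49 only without E15 saline 1. For apical progenitors, MIA against saline in wild type, the count of 0 became 1 with no filter on low counts and 4 with the replicate block. For intermediate progenitors in wild type the count of 0 became 1 with no filter on low counts. More genes enter the adjustment without the filter, and the cause was not tested otherwise. The block gave 29 called genes in place of 25 for saline E15 against E13. It left 49 for MIA E15 against E13 and for saline P14 against E15, and 0 for the other comparisons of MIA with saline. At E13 same-numbered libraries correlated at 0.35, −0.001 and 0.43, so that 1 of 3 pairs did not deviate together and E13 saline 2 correlated best with MIA 3, and at P14 only 2 numbers are shared (0.336 and 0.145). The block left both counts at 0.

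Under the alternatives, 56 values of the shares of cells and of the ratio of S phase to G2/M genes moved by more than the spread between libraries. With the narrow list of S phase genes the mean log2 ratio at E13 was −1.83 after saline and −1.61 after MIA, and as a mean over genes of log2 CPM it was −0.80 and −0.67. At P14 after saline the reported mean of 0.07 was −0.18 with the narrow list and 0.14 as a mean over genes. Among the genes followed singly in each comparison (Top2a, Mki67, Pcna, Mcm2, 1 gene per role and the lowest and highest estimates) 30 values lost and 8 gained the call, of which 17 and 4 belong to saline E15 against E13. Cdc20 and Tpx2, which the block also called, are not among these genes. A change of sign between values that were both uncalled was not counted as a reversal. The low-UMI clusters, the barcodes kept in every library and the criterion of 10 UMIs were added after the data were seen. The 2 P14 MIA libraries, and the 2 nuclei libraries per group, leave little precision, and without 1 of 2 the lone library is assumed to vary like the others.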

Other observations

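Cells positive for the 49 genes, by a criterion of at least 2 UMIs, were removed as doublets more often than the other cells. The shares were 3.59% against 0.545% at E13, 4.42% against 2.42% at E15 and 5.18% against 3.89% at P14. Cells of these stages also differ in depth, and the part of depth in these shares was not tested. With doublets kept, the counts of called genes stayed within 1.5 times those reported in all 13 comparisons.

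The barcodes shared between libraries carried much of the cycle signal at P14. With them kept in every library the G2/M genes had a mean of 288 ± 166 CPM (SD, n = 4) in P14 saline microglia, against 170 ± 41.1 CPM without. For 257 barcodes of P14 saline 3F and 238 of 3M the library with most UMIs was E13 MIA 2. Whether the UMIs of these barcodes came from P14 cells was not tested.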
